A study of Mus musculus with 2 samples.

Results

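The genes examined here encode the enzymes of central carbon metabolism, namely glycolysis, the pentose phosphate pathway, the conversion of pyruvate and the TCA cycle, together with the oxygen-sensing factor HIF-1α and a pair of the prolyl hydroxylases that mark it for degradation. They are 42 genes listed by symbol, out of 23238 symbols in the deposited tables and grouped by their place in these pathways. The libraries came from naïve splenic CD4+ T cells of wild-type C57BL/6 mice 7 to 10 weeks old, activated with plate-bound anti-CD3ε and soluble anti-CD28. Both cultures also received IL-2 (1 ng/ml), TGF-β1 (5 ng/ml) and antibodies that block IFN-γ and IL-4, the conditions that drive such cells toward induced regulatory T (iTreg) cells. One culture held the vehicle DMSO (Control) and the other 10 μM Tubastatin A (TSA), an inhibitor of the deacetylase HDAC6, and RNA was taken on day 1. Each condition gave 1 library, so no difference below has a replicate check, and no p-value is given.

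Activated T cells take up glucose and run glycolysis at a high rate even when oxygen is plentiful, which yields lactate, ATP and building blocks for growth. The pentose phosphate pathway branches off at glucose 6-phosphate and supplies NADPH and ribose, while the TCA cycle burns acetyl-CoA in mitochondria and feeds the respiratory chain. The Myc and HIF-1 transcription factors are known drivers of the glycolytic genes in T cells, and regulatory T cells are known to lean less on glycolysis than effector T cells do.

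Sequencing used QuantSeq, which reads each transcript once near its poly(A) tail, so levels are compared without division by length. The deposited values are log2 of a normalized count plus 1. Taken back from the log2 scale they fell on whole reads, with sums of 10846246 (control) and 10432698 (TSA). A gene counted as measured when at least 1 library held 10 reads or more, which held for 12164 rows of the tables and for 41 of the 42 members. Of the T cell markers Cd3d, Cd3e, Cd3g, Cd247, Cd4, Cd2, Cd5 and Lck, all 8 had between 602 and 4531 reads in each library. Summed reads were 12 in the control and 19 in the TSA library over 6 B cell markers (4 and 1 of them at 0), 95 and 78 over 8 myeloid markers (0 and 2 at 0), and 43 and 58 over 6 erythroid markers (2 at 0 in each). Over 6 markers of CD8 T cells and NK cells the sums were 1016 and 1171 (2 and 1 at 0). No single gene of these held more than 1043 reads in a library. Most of the reads came from Nkg7, which activated T cells also express. The part of these cells in the results was not tested.

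Some of the genes have copies so alike that short reads near the poly(A) tail cannot be placed with certainty. The last 300 nt of every protein-coding transcript of each member were compared with all GENCODE M21 transcripts, and a copy was a transcript of another gene with at least 95% identity over at least 200 nt. By this measure 34 of the 42 members had no copy and 8 had at least 1. Gapdh had 87, of which 13 were identical over the whole window, Eno1 and Ldha had 5 each, and Aldoa, Pkm and Tpi1 had 2 each. Gpi1 and Ldhb had 1 each. Values of these 8 genes are uncertain to that extent, since the sources do not say how reads with several equal matches were counted. Eno1, which makes the main enolase of most cells, was the member that was not measured: it was listed at 0 in both libraries, below the floor of 3 reads (0.277 CPM in the control and 0.288 CPM in the TSA library, CPM being reads scaled to a common library total). Eno1b, a near-identical gene for which the RefSeq table also lists the name Eno1, appeared in 2 rows instead. One row held 1424 reads in the control and 1187 in the TSA library, and the other held 1459 and 1150. Their sum went from 2883 to 2337 reads (fold change 0.803, with a 95% counting interval of 0.760 to 0.848), so reads of this enolase were present without a certain locus.

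HIF-1 and Myc, an E-box factor, are known drivers of glycolytic genes, but whether they act on the members in these cultures was not tested. The promoters of 4 members to which the results return are shown first. They run from 250 bases before to 50 after the transcription start in the RefSeq table of GRCm38.p6. Ldha and Hk2 were the most deeply read members that were lower in the TSA library with a log2 fold change of -0.45 or below, Taldo1 was the most deeply read of those higher by more than 1.5-fold, and Egln3 is a HIF-1 target in the oxygen-sensing loop. Capitals mark the HIF-1 core motif, ACGTG or GCGTG on either strand. The windows are chr7:46845554-46845853 on the plus strand for Ldha, chr6:82774405-82774704 on the minus strand for Hk2, chr7:141391910-141392209 on the plus strand for Taldo1 and chr12:54203825-54204124 on the minus strand for Egln3.
Ldha: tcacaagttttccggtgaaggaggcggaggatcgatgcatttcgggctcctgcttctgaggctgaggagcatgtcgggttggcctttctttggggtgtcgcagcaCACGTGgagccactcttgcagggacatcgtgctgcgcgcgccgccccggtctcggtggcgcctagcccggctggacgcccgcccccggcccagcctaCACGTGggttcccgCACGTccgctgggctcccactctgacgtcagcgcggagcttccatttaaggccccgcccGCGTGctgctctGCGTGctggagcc
Hk2: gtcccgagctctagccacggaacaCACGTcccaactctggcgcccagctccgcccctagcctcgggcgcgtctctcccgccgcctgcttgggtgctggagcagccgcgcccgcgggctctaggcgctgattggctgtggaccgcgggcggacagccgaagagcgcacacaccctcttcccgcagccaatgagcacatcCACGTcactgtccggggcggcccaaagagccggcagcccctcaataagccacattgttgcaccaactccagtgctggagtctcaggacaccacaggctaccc
Taldo1: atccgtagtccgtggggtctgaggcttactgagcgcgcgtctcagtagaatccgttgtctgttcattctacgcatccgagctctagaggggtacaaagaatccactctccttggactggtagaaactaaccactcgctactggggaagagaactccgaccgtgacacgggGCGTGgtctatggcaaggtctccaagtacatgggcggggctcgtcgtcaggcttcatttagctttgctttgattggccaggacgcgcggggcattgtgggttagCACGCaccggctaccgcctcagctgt
Egln3: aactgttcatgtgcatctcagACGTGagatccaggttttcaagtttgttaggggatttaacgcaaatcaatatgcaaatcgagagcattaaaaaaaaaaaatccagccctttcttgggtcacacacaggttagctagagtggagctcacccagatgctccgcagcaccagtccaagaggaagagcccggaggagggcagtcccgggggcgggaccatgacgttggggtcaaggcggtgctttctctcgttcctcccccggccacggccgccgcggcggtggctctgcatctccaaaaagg

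The Ldha window held 7 matches, counted on both strands, the Hk2 and Taldo1 windows 2 each and the Egln3 window 1. The table gives Ldha another start, whose window (chr7:46846832-46847131, plus strand) held 2 core matches and is not printed. The E-box CACGTG, which contains ACGTG on each strand and so counts as 2 of those matches, occurred 2 times in the printed Ldha window and 0 times in the other. Promoters were found for 41 of the 42 members by symbol (all but Idh3a), and where a gene had several starts, a match in any of them was counted. The core occurred in 35 of these 41 genes (85.4%), against 68.0% of the 9196 measured genes with a promoter in the table and 46.7% of all genes in it. These members had 61 windows, some of them overlapping, against 32851 windows for all 27025 genes, and more windows give a gene more room for a match. By window, the core occurred in 80.3% of the 61 and in 43.8% of all. The E-box occurred in 5 of the 41 (12.2%) and in 12.05% of the measured genes. The core occurred on both sides of the comparison, being present in 13 of 17 members that were lower in the TSA library beyond counting error, in 11 of 12 that were higher, and in 10 of 11 that differed by less than counting error. A match of these letters is a description of the sequence and not a binding site.

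Log2 fold changes are deposited TSA values minus deposited control values, and fold changes are the same differences taken off the log scale. Both contain 1 added normalized count and so understate the change of genes with few reads. The range in parentheses beside a fold change is its exact 95% counting interval (Clopper-Pearson), taken from the whole reads without the added count, and folds of summed reads also leave that count out. It covers counting error only, since PCR copies of a molecule were not told apart, and a gene is called higher or lower beyond counting error when it leaves out a fold of 1. Across the 41 measured members, 1 was higher by more than 2-fold (2.44%), against 11.5% of all measured genes, and 0 were lower by more than 2-fold, against 3.15%. At 1.5-fold, 5 members were higher (background 18.7%) and 3 lower (background 8.34%). The members were thus changed in modest steps, and most of them lay in the well-read range where few genes moved far, as the plot of members among all genes shows.

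**Figure D1:**
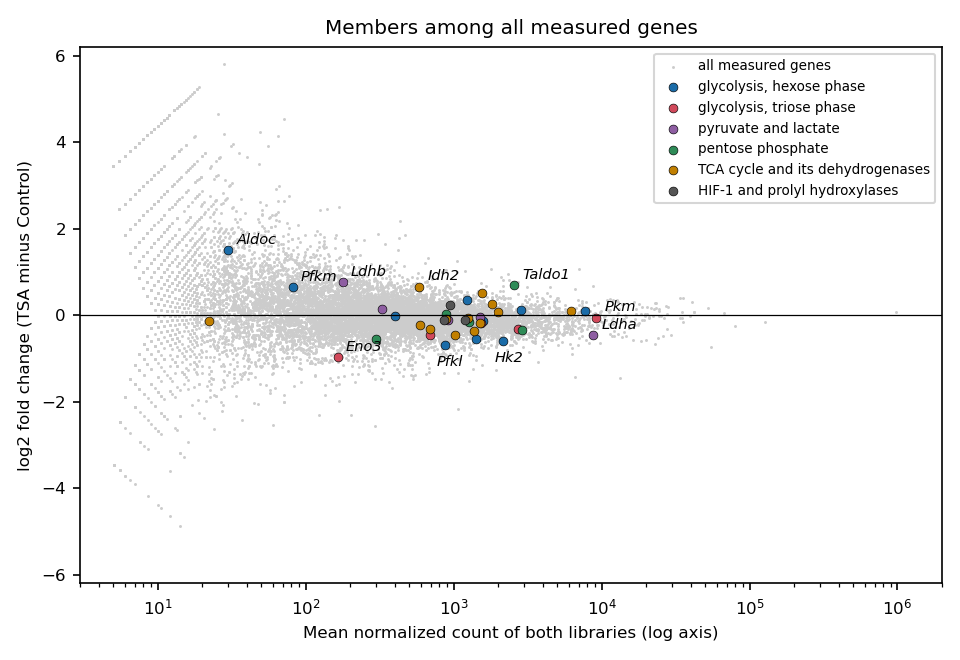
Log2 fold change (TSA minus Control, vertical axis) against the mean normalized count of both libraries (horizontal log axis) for all 12164 measured genes in grey and the 41 measured members coloured by role. The members sit mostly near or below 0 at high counts, with Aldoc (log2 fold change 1.51) the one beyond 2-fold and Eno3 (-0.975) close to it on the lower side.

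By the counting interval 18 members were lower and 12 were higher in the TSA library, and the other 11 had an interval that held no change. The lower members were 43.9% of those measured, against a background of 28.0% of all measured genes, and the higher members 29.3%, against 28.1%. The intervals narrow with depth, and the median member had 1230 reads in the control library against 237 for all measured genes, so the same counts were made over genes whose normalized count averaged 500 or more. Of the 33 members at that level 16 were lower (48.5%), against 48.5% of all 3962 genes there, and 9 were higher (27.3%), against 20.8%. Past 2-fold, 0 of the 33 were higher or lower, against 0.227% and 0.707% of those genes. The median log2 fold change of the 41 members was -0.11, against 0.015 for all measured genes and -0.11 for all genes at that level. The share of lower members thus equalled that of all genes above the same floor. The members there were still read somewhat deeper, with a median of 1507 control reads against 1117.5 for those genes. With libraries scaled by total reads, which adds 0.070 to every log2 fold change, 13 members were lower and 13 higher beyond counting error (31.7% each), against 21.6% lower and 33.7% higher among all measured genes. Under that scaling the intervals of Pfkp, Pkm, Pgd, Idh3a and Sucla2 held no change, and Cs was higher.

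**Figure D2:**
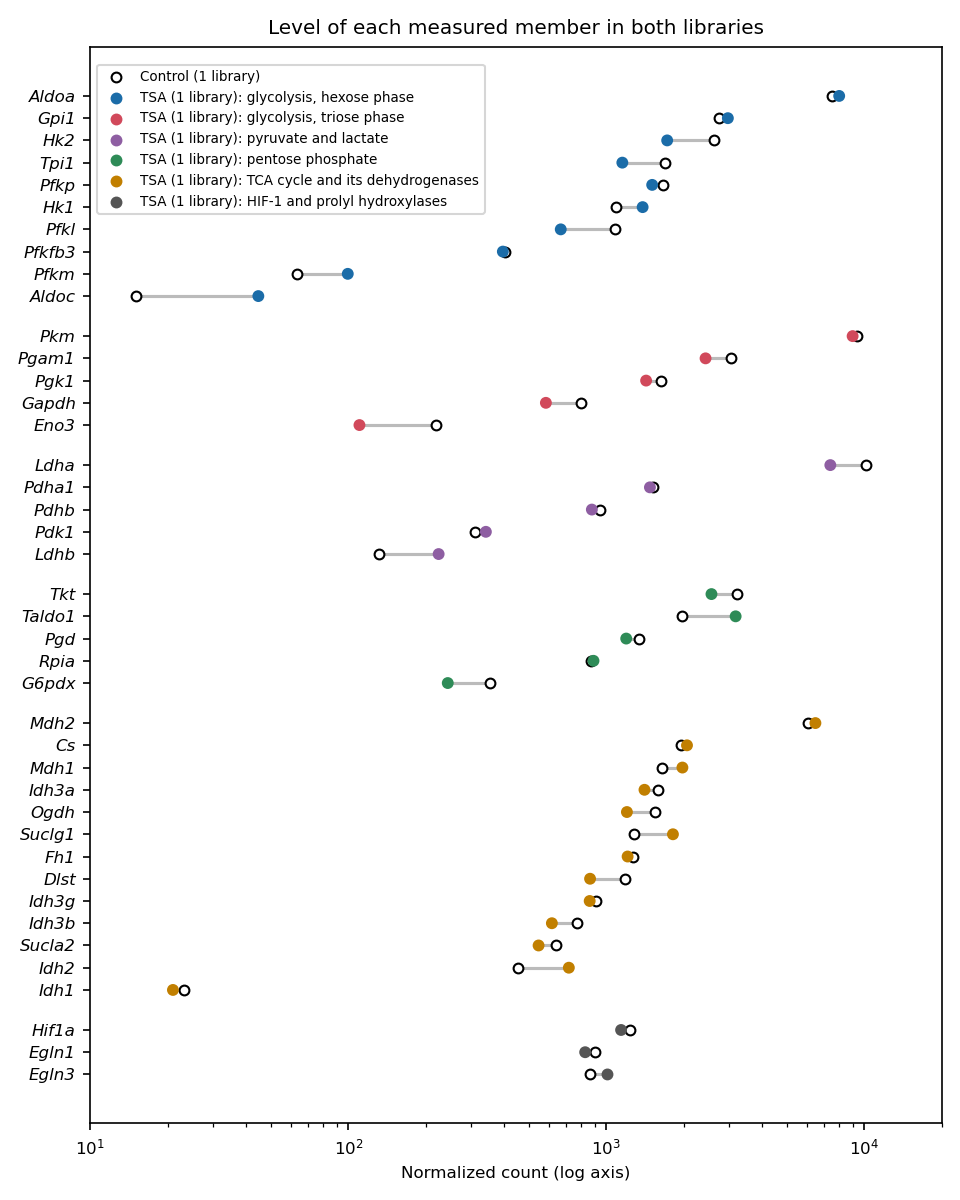
Normalized count (log axis) of each of the 41 measured members in the Control library (open circles) and the TSA library (filled, coloured by role), 1 library each, joined by a line and ordered within a role by the control level. Levels spanned from 15.1 (Aldoc) to 10112 (Ldha) in the control, and the longest lines belong to Aldoc, Eno3, Ldhb, Pfkl, Taldo1, Idh2, Pfkm and Hk2.

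All members together took 0.706% (control) and 0.699% (TSA) of a library's reads, and 4 genes held 42.9% and 42.5% of these. Ldha, which makes the muscle-type subunit of lactate dehydrogenase, had the highest control level of the members with 10063 reads, rank 104 among all rows. Pkm, the pyruvate kinase gene, followed with 9330 reads, Aldoa, the main aldolase gene, with 7479 and Mdh2, mitochondrial malate dehydrogenase, with 6008. In the TSA library the order was Pkm (9051), Aldoa (8028), Ldha (7418) and Mdh2 (6494), with Ldha at rank 149. Ldha had thus passed from the highest to the third place among the members. At the other end were Aldoc with 15 and 45 reads, Idh1 with 23 and 21, and Pfkm with 63 and 100.

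The genes of the hexose phase of glycolysis, which traps glucose and splits it, differed in both directions. Of its 10 measured members 4 were lower and 5 higher beyond counting error, against 28.0% and 28.1% of all measured genes and 48.5% and 20.8% of those averaging 500 or more, and the median log2 fold change was 0.03. This median turned to -0.09 over the members averaging 100 or more, to -0.15 over those averaging 500 or more and to -0.03 without the members that have copies. Hexokinase traps glucose in the cell. Hk2, the inducible form, had 2598 reads in the control and 1730 in the TSA library (fold change 0.659, 0.620 to 0.701). Hk1, the form that most cells express, had 1085 and 1389 reads (fold change 1.27, 1.17 to 1.37). The sum of both genes was lower, with 3683 and 3119 reads (fold change 0.839, 0.799 to 0.880), and Hk2 remained the more abundant. In GENCODE M21 on GRCm38, Hk2 occupies chromosome 6 from 82725025 to 82774454 and Hk1 chromosome 10 from 62268855 to 62379908.

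Phosphofructokinase commits sugar to glycolysis and is built from liver, muscle and platelet subunits. Pfkl, the liver type, had 1077 reads in the control and 669 in the TSA library (fold change 0.616, 0.558 to 0.678), the lowest among members with over 500 reads in both libraries. Pfkp, the platelet type, had 1657 and 1513 reads (fold change 0.904, 0.843 to 0.970). Pfkm, the muscle type, had 63 and 100 reads (fold change 1.56, 1.14 to 2.19). The subunits therefore differed in direction, and their sum went from 2797 to 2282 reads (fold change 0.808, 0.764 to 0.854). Pfkl lies on chromosome 10 from 77986947 to 78010083. Pfkfb3, which makes the allosteric activator of phosphofructokinase, had 402 and 399 reads and did not differ by more than counting error (0.854 to 1.13).

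Around these steps the changes were smaller, except for Tpi1 and Aldoc. Gpi1, the isomerase between both kinases, had 2722 reads in the control and 2973 in the TSA library (fold change 1.08, 1.026 to 1.14). Aldoa had 7479 and 8028 reads (fold change 1.06, 1.03 to 1.097). Aldoc, the brain-type aldolase, had the largest fold change of the members, 2.85 (1.62 to 5.74), but on 15 and 45 reads, so that it supplied under 1% of the aldolase reads in either library. Tpi1, which interconverts the triose phosphates, had 1682 and 1159 reads (fold change 0.683, 0.633 to 0.736).

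In the triose phase, where ATP is made, all 5 measured members were lower in the TSA library beyond counting error, with a median log2 fold change of -0.32. With total-read scaling, which turned the sign of Pkm, and with upper-quartile scaling, all but Pkm were still lower. The lower share over all measured genes was 28.0%, and 48.5% over those averaging 500 or more. Gapdh, whose enzyme oxidises the triose phosphate, had 794 reads in the control and 586 in the TSA library (fold change 0.731, 0.656 to 0.814), and is the gene with the most copies. Pgk1, phosphoglycerate kinase, had 1616 and 1433 reads (fold change 0.878, 0.817 to 0.943). Pgam1, phosphoglycerate mutase, had 3018 and 2436 (fold change 0.799, 0.757 to 0.843). The smallest difference was that of Pkm, which had 9330 and 9051 reads and a fold change of 0.961 (0.933 to 0.989), and with total-read scaling its log2 fold change turned from -0.06 to 0.012. Eno3, the muscle enolase gene, had 217 and 111 reads (fold change 0.509, 0.399 to 0.640), just short of 2-fold. Eno2, an enolase gene outside the member list, went the other way on few reads, with 32 and 59 (fold change 1.80, 1.17 to 2.90). The reads of the 5 members, without Eno1b and Eno2, summed to 14975 and 13617 (fold change 0.9004, 0.880 to 0.922). Pkm supplied most of them.

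**Figure D3:**
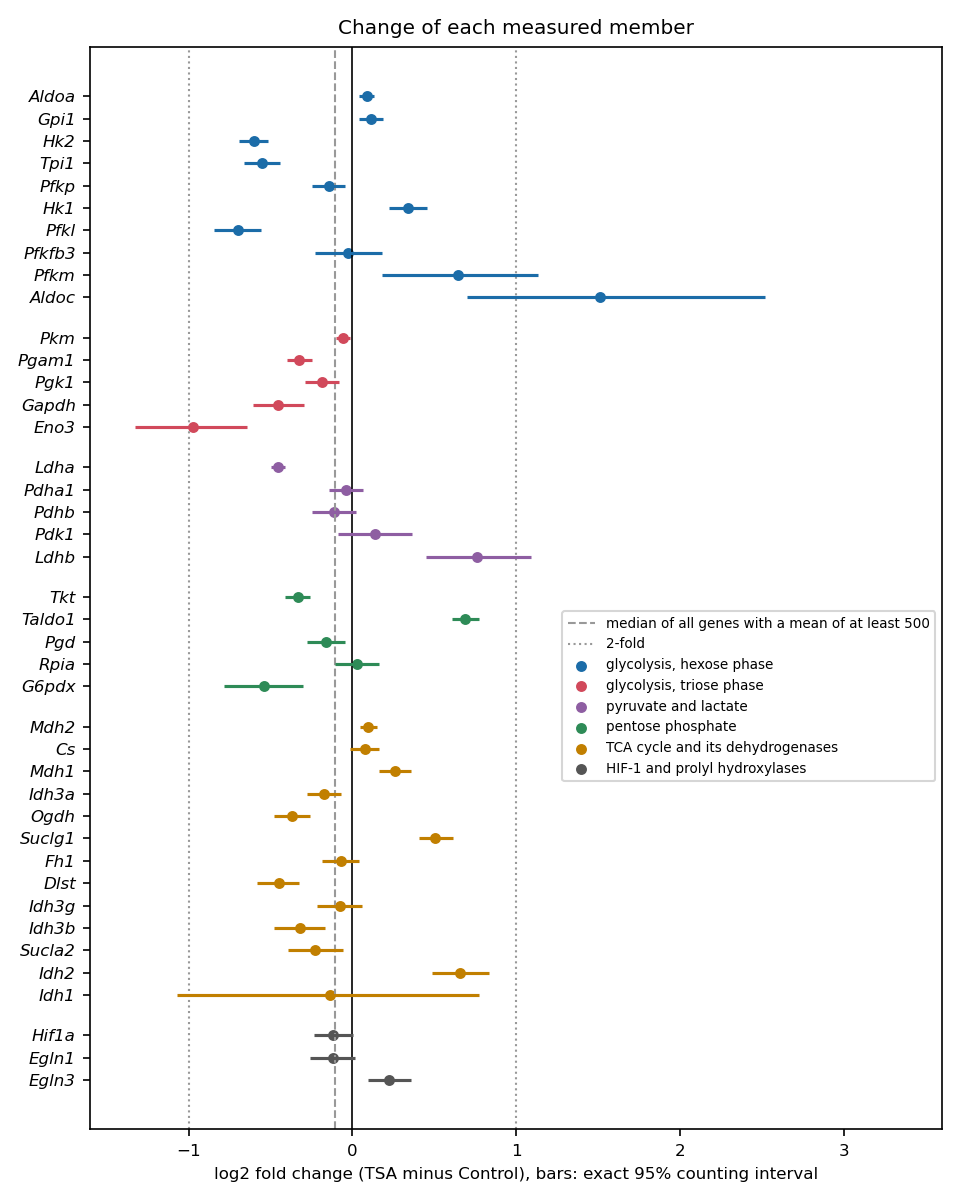
Log2 fold change (TSA minus Control, horizontal axis) of the 41 measured members, grouped by role, with bars for the exact 95% counting interval; dotted lines mark 2-fold and the dashed line the median of all genes with a mean level of 500 or more (-0.11). All 5 measured triose phase members lie to the left of 0, Pkm nearest to it and past it with total-read scaling, while the other roles have members on both sides.

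At the branch of pyruvate, the lactate dehydrogenase genes went in opposite directions. Ldha, whose subunit favours the making of lactate, had 10063 reads in the control and 7418 in the TSA library (fold change 0.730, 0.708 to 0.752). Ldhb, whose subunit is known from heart and favours the use of lactate, had 131 and 225 reads (fold change 1.695, 1.365 to 2.13). Ldha was still the dominant gene, but its reads were 76.8 times those of Ldhb in the control and 33.0 times in the TSA library. Ldha lies on chromosome 7 from 46841475 to 46855627 and Ldhb on chromosome 6 from 142490249 to 142507957. Of the genes that steer pyruvate into mitochondria, the members Pdk1, Pdha1 and Pdhb did not differ by more than counting error. Pdk1, the kinase that switches off pyruvate dehydrogenase, had 309 and 343 reads (0.940 to 1.29). Pdha1 and Pdhb, the subunits of the E1 enzyme of that complex, had 1507 and 1483 reads (0.906 to 1.05) and 944 and 883 reads (0.844 to 1.02).

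In the pentose phosphate pathway the oxidative and the non-oxidative branch are told apart, the former making NADPH and the latter exchanging carbon between sugars. G6pdx, the entry enzyme, had 352 reads in the control and 244 in the TSA library (fold change 0.687, 0.581 to 0.810). Pgd, the next dehydrogenase, had 1329 and 1200 reads (fold change 0.894, 0.826 to 0.967). With total-read scaling the interval of Pgd held no change (0.868 to 1.016), and H6pd, an NADPH-making relative of G6pdx described with the other pathway genes, was higher. Of the 5 members of the pathway 3 were lower and 1 higher, against 28.0% and 28.1% of all measured genes and 48.5% and 20.8% of those averaging 500 or more. In the non-oxidative branch, transaldolase and transketolase differed in sign. Taldo1, transaldolase, had 1957 and 3186 reads (fold change 1.61, 1.52 to 1.71), the highest among members with over 500 reads in both libraries. Tkt, transketolase, had 3203 and 2568 reads (fold change 0.794, 0.753 to 0.836). Rpia, ribose phosphate isomerase, had 870 and 896 reads and did not differ by more than counting error (0.928 to 1.12). Taldo1 occupies 141392199 to 141402968 on chromosome 7.

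Of the 13 genes of the TCA cycle and its dehydrogenases, 5 were lower, 4 higher and 4 within counting error, with a median log2 fold change of -0.08. The shares, 38.5% lower and 30.8% higher, compare with 28.0% and 28.1% of all measured genes and with 48.5% and 20.8% of those averaging 500 or more. Ogdh, the E1 enzyme of the 2-oxoglutarate dehydrogenase complex, had 1542 reads in the control and 1208 in the TSA library (fold change 0.775, 0.719 to 0.837). Dlst, the E2 enzyme of the same complex, had 1177 and 869 reads (fold change 0.732, 0.669 to 0.799). Of the NAD-dependent isocitrate dehydrogenase, Idh3a had 1578 and 1413 reads (fold change 0.886, 0.825 to 0.953). Idh3b had 765 and 618 (fold change 0.801, 0.718 to 0.891), and Idh3g had 905 and 866 (0.862 to 1.04). Of these 5 genes, 4 were lower beyond counting error, while the interval of Idh3g held no change, as did that of Idh3a with total-read scaling (0.866 to 1.001).

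Other steps of the cycle were higher in the TSA library. Idh2, the mitochondrial NADP-dependent isocitrate dehydrogenase, had 451 reads in the control and 719 in the TSA library (fold change 1.58, 1.40 to 1.78). Idh1, its cytosolic counterpart, had 23 and 21 reads, too few to show a difference (0.476 to 1.71). Succinyl-CoA ligase pairs a common subunit, Suclg1, with Sucla2 in the ATP-forming enzyme. Suclg1 had 1268 and 1821 reads (fold change 1.42, 1.32 to 1.53), while Sucla2 had 636 and 549 (fold change 0.855, 0.761 to 0.960). The subunits of 1 enzyme thus differed in sign, although with total-read scaling the interval of Sucla2 held no change (0.799 to 1.008).

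Both malate dehydrogenases, which also shuttle reducing power between cytosol and mitochondria, were higher. Mdh1, the cytosolic form, had 1638 and 1981 reads (fold change 1.197, 1.12 to 1.28), and Mdh2, the mitochondrial form, had 6008 and 6494 (fold change 1.07, 1.03 to 1.11). Cs, citrate synthase, had 1940 and 2064 reads (0.9897 to 1.12) and Fh1, fumarase, had 1265 and 1215 (0.878 to 1.03), and neither differed by more than counting error. Summed over the 13 genes, the reads were 19196 and 19838 (fold change 1.02, 1.003 to 1.04). Idh2 lies on chromosome 7 from 80094846 to 80115392 and Suclg1 on chromosome 6 from 73248382 to 73276911.

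HIF-1α is held down by prolyl hydroxylases when oxygen is present, and the Egln3 gene is in turn switched on by HIF-1. Hif1a had 1230 reads in the control and 1146 in the TSA library, an interval of 0.851 to 1.001. Egln1, the main oxygen sensor, had 896 and 832 reads (0.836 to 1.012). Neither differed by more than counting error, except that Hif1a was lower when scaled by the median of ratios (0.849 to 0.999). Egln3, whose promoter is shown above with its single core motif, had 860 and 1015 reads (fold change 1.17, 1.07 to 1.28). In a bulk culture the amount of a transcript per cell and the number of cells that hold it cannot be told apart, for these genes and all others.

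**Figure D4:**
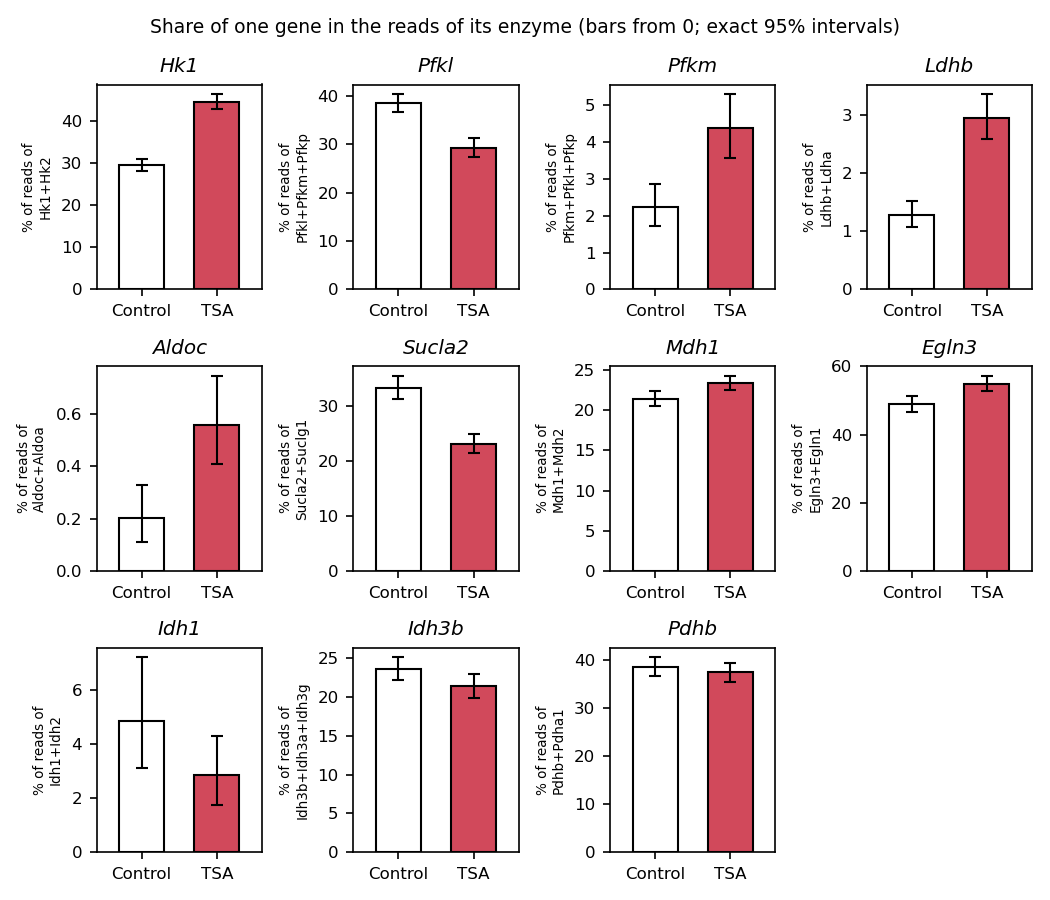
Share of reads (percent, bars from 0) that 1 gene held among the members listed for its enzyme in the Control and the TSA library, with exact 95% binomial intervals for counting error. The share of Hk1 went from 29.5% to 44.5% and that of Ldhb from 1.29% to 2.94%, while the intervals of Idh1, Idh3b and Pdhb overlap between the libraries.

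Shares of reads among the members of an enzyme do not depend on the scaling between libraries, so they were compared as well. Related genes outside the member list, such as Suclg2 (526 and 463 reads) and Egln2 (390 and 400), were left out of these shares. Of the hexokinase reads Hk1 held 29.5% (28.0 to 31.0) in the control and 44.5% (42.8 to 46.3) in the TSA library. Of the phosphofructokinase reads Pfkl held 38.5% (36.7 to 40.3) and 29.3% (27.5 to 31.2), Pfkp 59.2% and 66.3%, and Pfkm 2.25% (1.74 to 2.87) and 4.38% (3.58 to 5.30). Of the lactate dehydrogenase reads Ldhb held 1.29% (1.08 to 1.52) and 2.94% (2.58 to 3.35). The intervals of these shares did not overlap between libraries, and how often that holds for other groups of genes was not tested. Sucla2 held 33.4% (31.3 to 35.6) of the Suclg1 and Sucla2 reads in the control and 23.2% (21.5 to 24.9) in the TSA library, and Egln3 49.0% (46.6 to 51.3) and 55.0% (52.7 to 57.2) of the Egln1 and Egln3 reads. Mdh1 held 21.4% (20.5 to 22.4) and 23.4% (22.5 to 24.3), and Aldoc 0.200% (0.112 to 0.330) and 0.557% (0.407 to 0.745). By contrast, the intervals overlapped for Idh1 against Idh2, for all 3 subunits of the NAD-dependent isocitrate dehydrogenase and for Pdha1 against Pdhb. Idh3a, for instance, held 48.6% (46.9 to 50.3) and 48.8% (46.9 to 50.6).

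Of 88 other genes of the same pathways, 65 were measured, in 66 rows because Eno1b has 2. Of these rows 23 were higher (34.8%) and 22 lower (33.3%) beyond counting error, against 28.1% and 28.0% of all measured genes. Past 2-fold, 6 lay on the higher side (9.09%) and 2 on the lower (3.03%), against a background of 11.5% and 3.15%, and the median log2 fold change was 0.01. Epas1, Car9, P4ha2 and Ldhd, 4 of these rows, had 10 reads or more only in the library where they were higher. Of the 62 rows with 10 reads or more in both libraries, 3 were past 2-fold higher (4.84%) and 1 lower (1.61%), against 4.80% and 2.04% of the 10909 genes at that filter. The transporters for glucose and lactate were mostly lower. Slc2a1, the GLUT1 glucose transporter, had 615 reads in the control and 386 in the TSA library (fold change 0.622, 0.546 to 0.707). Slc16a1 and Slc16a3, the lactate carriers MCT1 and MCT4, had 1747 and 1287 reads (0.678 to 0.784) and 245 and 157 reads (0.516 to 0.778). Slc2a6, another sugar transporter gene, had 84 and 36 (fold change 0.431, 0.279 to 0.634), whereas Slc2a3, the GLUT3 gene, had 129 and 159 (0.961 to 1.55). Of the 5 measured transporter genes, 4 were thus lower beyond counting error (background 28.0%), and with total-read scaling Slc2a3 was higher (1.009 to 1.629).

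Among further glycolytic genes, Gpd2, the mitochondrial glycerol phosphate dehydrogenase, had 1130 and 730 reads (fold change 0.640, 0.582 to 0.703). Adpgk, the ADP-dependent glucokinase, had 478 and 375 (0.677 to 0.891). Pfkfb4, a relative of Pfkfb3, had 23 and 51 reads (fold change 2.15, 1.32 to 3.76). Among the regulators of pyruvate dehydrogenase, Pdk3, the kinase gene with the most reads, had 616 and 665 and did not differ by more than counting error (0.957 to 1.19), save with total-read scaling (1.004 to 1.254). Pdk2, another of the kinases, had 27 and 64 reads (fold change 2.30, 1.48 to 3.83). Pdp1 and Pdp2, the phosphatases, had 86 and 118 reads (1.02 to 1.82) and 283 and 380 reads (1.14 to 1.56), and Pdpr, their regulatory subunit, had 10 and 28 (1.31 to 6.397). Pdhx, a structural subunit of the complex, was lower with 354 and 262 reads (0.622 to 0.862). Mpc1, a subunit of the mitochondrial pyruvate carrier, was lower with 391 and 317 reads (0.690 to 0.933), while its partner Mpc2 had 710 and 728 (0.914 to 1.13); these genes and Pdk3 were singled out after their values were seen. Ldhd, the D-lactate dehydrogenase gene, lay past 2-fold on the lower side with 18 and 8 reads, but its interval held no change (0.166 to 1.06).

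In the pentose phosphate list 3 of 6 measured genes were higher and 0 lower (background 28.1% and 28.0%), among them H6pd, the form of the entry enzyme in the endoplasmic reticulum, with 176 and 219 reads (1.006 to 1.51), and Prps2, which makes phosphoribosyl pyrophosphate, with 767 and 929 (1.09 to 1.32). Rpe, the ribulose phosphate epimerase gene, had 294 and 344 reads (0.989 to 1.36) and was higher beyond counting error with total-read scaling (1.038 to 1.426). Among the other TCA cycle genes 4 of 11 were higher and 6 lower, against 28.1% and 28.0% of all measured genes and 20.8% and 48.5% of those averaging 500 or more. Aco1, the cytosolic aconitase, had 254 and 185 reads (0.593 to 0.875) and Me2, a mitochondrial malic enzyme, had 1065 and 826 (0.700 to 0.842). Nnt, which makes NADPH in mitochondria, had 454 and 598 reads (1.15 to 1.48).

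**Figure D5:**
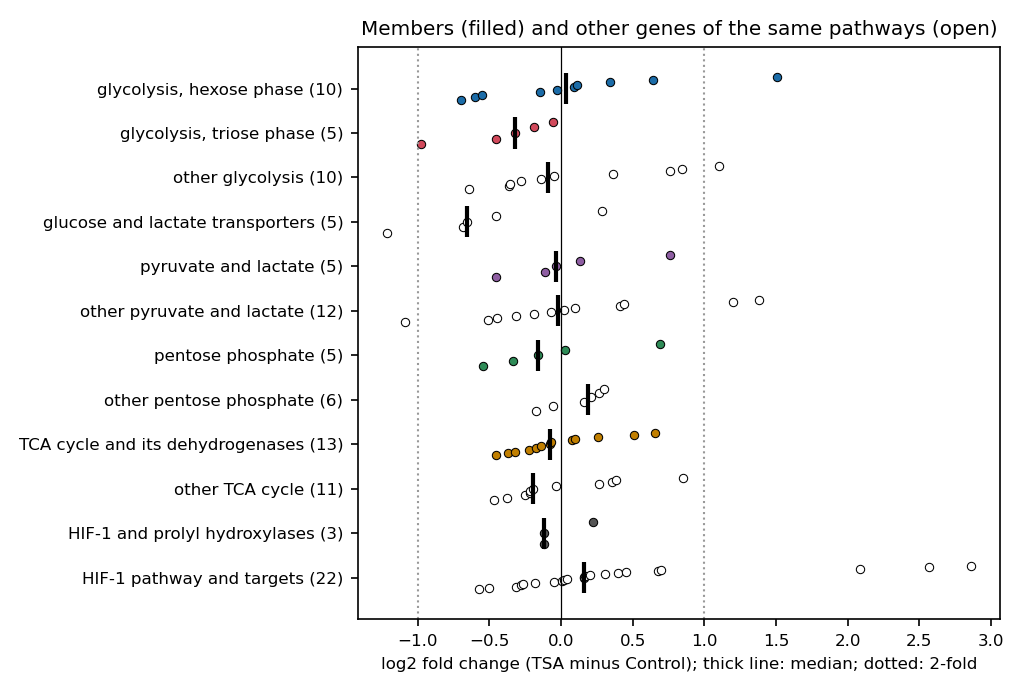
Log2 fold change (TSA minus Control, horizontal axis) of the measured members by role (filled points) and of the other genes of the same pathways (open points), 1 point per table row with the number of rows in brackets; thick lines are medians and dotted lines mark 2-fold. The glucose and lactate transporters have a median of -0.65, and the widest values to the right belong to HIF-1 pathway genes with few reads.

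Of the 22 measured genes of the HIF-1 pathway and its targets, 9 were higher (40.9%) and 5 lower (22.7%) beyond counting error, against 28.1% and 28.0% of all measured genes, with a median log2 fold change of 0.16. With total-read scaling 11 were higher and 2 lower (background 33.7% and 21.6%), since Vegfa and Higd1a joined the higher genes and the intervals of Vhl, P4ha1 and Myc held no change. Epas1, Car9 and P4ha2 counted as measured through their TSA reads alone, and of the 19 genes with 10 reads or more in both libraries 6 were higher (31.6%), 5 lower (26.3%) and 0 past 2-fold, with a median of 0.04. Over all 10909 genes at that filter 24.2% were higher, 30.1% lower and the median was -0.017. Arnt, the partner of HIF-1α, had 131 reads in the control and 212 in the TSA library (fold change 1.598, 1.28 to 2.01). Mxi1, a Myc antagonist induced by HIF-1, had 128 and 210 reads (fold change 1.62, 1.30 to 2.04). Bhlhe40, a transcription factor that hypoxia also induces, had 384 and 261 reads (fold change 0.674, 0.573 to 0.790). The genes past 2-fold rested on few reads. P4ha2, a collagen prolyl hydroxylase, had 6 and 29 reads (1.95 to 14.1), Epas1, which makes HIF-2α, had 2 and 21 (2.54 to 91.5), and Car9, a carbonic anhydrase, had 2 and 17 (1.998 to 75.1). Myc had 1312 and 1170 reads (fold change 0.883, 0.815 to 0.956).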

How the data were processed

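Total RNA from 1 culture per condition was made into QuantSeq libraries by the authors and sequenced as single-end 75-nt reads. Their processing notes name Bowtie2, bedtools and mm10; the counting rules and the normalization are not given in the sources used here. The deposited values are log2 of a normalized count plus 1, with 3 decimals. Whole reads were recovered from them: 1 read was worth 1.005 normalized counts in the control and 0.995 in the TSA library, and 99.95% and 99.86% of values of up to 300 reads lay within 0.1 of a whole number. In the control, 1940 rows without a read carried values of up to 0.016 and were read as 0. Recovered reads of the deepest genes are exact only to a few reads.

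Fold changes, intervals, medians and counts were computed with Python 3.11.15, numpy 2.4.6, scipy 1.17.1 and pandas 2.3.3, and copies were searched with BLAST 2.17.0. mm10 is GRCm38, the build of the GENCODE M21 and RefSeq tables used. The steps were tested on simulated data. The members, lists and tests were chosen with earlier results of these data known. All 42 members are named. Other pathway genes named by rule were the measured transporters, Myc and any past 2-fold. The rule also took up to 3 per list with the largest change at a mean of at least 100. Named outside the rule, after their values were seen, were Pdk3, Mpc1, Mpc2, Eno2, Suclg2, Egln2, Vegfa, Higd1a, Vhl and P4ha1.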

Additional observations from a re-analysis of the deposited data

How the results depend on the processing

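No paired analysis was possible because each condition had 1 library, and no replicate could be left out. Scaling by total reads, the trimmed mean of M-values, the median of ratios or the upper quartile, and adding 0.1 or 5 in place of 1 normalized count, left 1 member higher and 0 lower past 2-fold. When genes had to average 100 or 500 normalized counts, 0 members were higher past 2-fold, since Aldoc was removed. At 1.5-fold, 5 were higher and 3 lower. At 500 the median log2 fold change of the hexose phase was -0.15 in place of 0.03, as Pfkm, Pfkfb3 and Aldoc left. Scaling by total reads turned the log2 fold change of Pkm to 0.012, and the values of Pfkfb3 and Pdha1, which lay within counting error, to 0.045 and 0.033. Scaling by the upper quartile turned Pfkfb3 and Pdha1 to 0.017 and 0.0052. Under it the interval of Pkm also held no change (0.961 to 1.018), and Cs was higher (1.019 to 1.155). In all, 114 of 119 recomputed counts and medians moved little, a count by no more than 1.5 times and a median within the median bounds of its genes' counting intervals. The trimmed mean and the median of ratios shifted every log2 fold change by only -4.5e-05 and -0.0023, so those settings could move little. Within its bounds a median could still change sign, as that of the pyruvate and lactate members did with total-read scaling (-0.038 to 0.033). Requiring 10 reads in both libraries, added after the data were seen for the HIF-1 pathway list, left 6 of its 19 genes higher, 5 lower and 0 past 2-fold (24.2% of all genes at that filter were higher and 30.1% lower). Without the 8 members that have near-identical copies, an alternative added after the data were seen, 14 of 34 were lower and 9 higher beyond counting error (background 28.0% and 28.1%), and the median was -0.11. Depth limits Idh1, Aldoc and Pfkm most, with 100 reads or fewer in each library.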

Other observations

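The oligonucleotides that the study lists for its qRT-PCR assays include a set for Gapdh, 1 of the members that were lower in the TSA library (log2 fold change -0.45, and lower under every scaling tried). The sequences are shown because in this gene they lie upstream of the last 300 nt over which its copies were compared. In the longest GENCODE M21 protein-coding transcript of Gapdh, 1420 nt long, the forward primer matched positions 948 to 968, the probe 971 to 993 and the reverse primer, on the opposite strand, 1050 to 1071, so that the reverse primer ended 349 nt before the end of the transcript.
Gapdh forward primer: caatgtgtccgtcgtggatct
Gapdh probe: cgtgccgcctggagaaacctgcc
Gapdh reverse primer: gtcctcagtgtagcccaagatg

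Of the 87 near-identical copies of Gapdh, 5 had a row of their own in the deposited tables, and these rows held 333 reads in the control and 257 in the TSA library beside the 794 and 586 of Gapdh. Gm12070, a processed pseudogene identical to Gapdh over the last 300 nt of a transcript, held 224 and 175 of them. Aldoart1, a gene related to Aldoa, held 42 and 32 reads. How many reads of Gapdh itself were counted elsewhere was not tested.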
